A study of Mus musculus with 13 samples.

Results

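Scavenger receptors are surface proteins that bind modified lipoproteins, microbes, haemoglobin complexes, collagen fragments and dying cells and carry them into the cell. They are grouped by structure and not by descent. Class A receptors have collagen-like stalks, class B receptors cross the membrane near both ends of the protein, and other members carry lectin domains or cysteine-rich repeats. Most are best known from macrophages, and several, among them Cd36, Scarb1 and Stab1, are also found on endothelium. The 10 genes described here are Marco, Msr1, Colec12, Cd36, Scarb1, Scarb2, Stab1, Cd163, Mrc1 and Olr1, taken by symbol from a family list. These genes were chosen with earlier results of these data known, so the counts below describe them and are not a test. They are 10 of 18193 mouse genes with a probe set on the array, and they carry 19 probe sets. Each gene is given by its brightest probe set, that with the highest mean over the 13 arrays, and all 10 passed the filter on dim genes that kept 15384 genes.

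Expression was measured on 13 Affymetrix arrays of RNA from cells sorted by FACS with an antibody to CD31. That protein marks endothelium and is also found on platelets and some macrophages. The cells came from tumors of SKOV3ip1, a human ovarian cancer line, grown in mice. By the labels, 5 arrays were controls, 4 were sensitive and 4 were resistant. The paper names the treatment behind the last 2 groups as B20, an antibody against VEGF-A. The study's methods list NCr-nu athymic nude females and C57BL/6 mice. The paper states that nude mice received SKOV3ip1 cells in its aptamer experiment. As tumor hosts, C57BL/6 mice are described there with a mouse ovarian cancer line. The methods also give a control IgG arm and an assignment to the sensitive or resistant group by tumor bioluminescence. The paper's introduction describes endothelial cells taken before treatment, at the peak of response and once tumors progressed. Response group and time of collection therefore cannot be told apart here. The labels name neither strain, age nor treatment of the control tumors. The tumors were digested with collagenase A, elastase and DNase 1, and Percoll was used to deplete platelets and red cells before the sort. The labels call each array a biological replicate and tie none to a named animal, so a p-value here measures only how these samples spread.

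The 250 bases before a transcription start of 3 of the genes are printed here as RefSeq gives them for mouse build GRCm38.p6. Marco is shown as the receptor with the largest difference between resistant and sensitive arrays, and Mrc1 and Cd36 as receptors that were low on some control arrays. Capitals mark the core of the site bound by PU.1, a factor of the macrophage lineage, spelled GAGGAA on either strand.
Marco, chr1:120505025-120505274, minus strand: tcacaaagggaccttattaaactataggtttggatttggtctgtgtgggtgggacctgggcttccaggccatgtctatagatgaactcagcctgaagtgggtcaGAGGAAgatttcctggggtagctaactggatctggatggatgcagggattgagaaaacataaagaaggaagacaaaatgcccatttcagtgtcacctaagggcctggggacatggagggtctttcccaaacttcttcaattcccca
Mrc1, chr2:14229164-14229413, plus strand: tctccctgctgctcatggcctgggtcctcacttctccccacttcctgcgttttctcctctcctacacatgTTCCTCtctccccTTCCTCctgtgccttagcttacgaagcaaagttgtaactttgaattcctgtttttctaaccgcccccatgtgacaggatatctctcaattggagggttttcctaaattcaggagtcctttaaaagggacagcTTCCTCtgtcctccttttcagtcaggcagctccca
Cd36, chr5:17835897-17836146, minus strand: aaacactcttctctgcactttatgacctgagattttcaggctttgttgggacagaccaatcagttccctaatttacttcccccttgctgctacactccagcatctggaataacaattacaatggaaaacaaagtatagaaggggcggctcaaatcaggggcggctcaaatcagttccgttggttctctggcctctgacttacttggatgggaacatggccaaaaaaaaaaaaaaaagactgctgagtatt
The Marco window held 1 match, the Mrc1 window 3 and the Cd36 window 0. The Cd36 window lay within the span of the gene, chr5:17781690-17888959, so the bases before its outermost start were not searched. Windows were found for 7 of the 10 genes, and Stab1 and Olr1 also had 1 match each, while Scarb2 and Cd163 had 0. Of all 32851 windows of this length, 23.3% held the motif at least once. The AP-1 motif TGANTCA, in 6.75% of all windows, was found once, in the Olr1 window. The PPAR and RXR element of 2 copies of AGGTCA with 1 base between them, in 0.0335% of all windows, the E-box CACGTG in 6.02%, and the HIF core ACGTG, which overlaps the E-box, in 16.6%, had 0 matches in the 7 windows. A match of this kind is a description of the letters and not a binding site.

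Cell type markers differed between arrays of one group. All levels given here are log2 values after quantile normalization, with a floor of 2.01. For 16 macrophage and monocyte markers, sensitive arrays 1, 2 and 3 had medians of 5.18, 5.996 and 5.98. Sensitive array 4 reached 10.66, and the arrays of the other groups lay at 8.45 to 10.49. The log2 of their summed level ran from 13.99 to 14.64 in the control group, from 10.91 to 14.83 in the sensitive group and from 13.83 to 14.72 in the resistant group. Of the endothelial markers, Pecam1, which encodes CD31, was at 6.56 on control arrays 4 and 5 and at 2.32 to 3.41 on the other 11 arrays, and Cdh5, the cadherin of endothelial junctions, was at 7.96 and 8.06 on those 2 arrays and at most 4.28 on the rest. Of the 13 arrays labelled as endothelial, 2 thus carried the defining endothelial markers well above the floor. Sensitive arrays 1 and 2 carried the highest medians of mesothelial markers, 8.31 and 7.88, against at most 6.97 elsewhere, and B cell markers had a median of 7.64 on sensitive array 3 and at most 5.51 elsewhere. The 3′ minus 5′ difference of Actb and Gapdh, which grows as RNA degrades, was 5.75 on sensitive array 4 and 2.64 to 3.46 on the other sensitive arrays. Controls ranged from 2.15 to 2.82, and the resistant group had 2.40, 3.56, 3.32 and 4.11 on its arrays 1 to 4. Fibroblast and pericyte markers had their highest median, 8.67, on resistant array 2, followed by 8.54 and 7.92 on sensitive arrays 2 and 1, and their lowest, 4.14, on sensitive array 4.

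**Figure D1:**
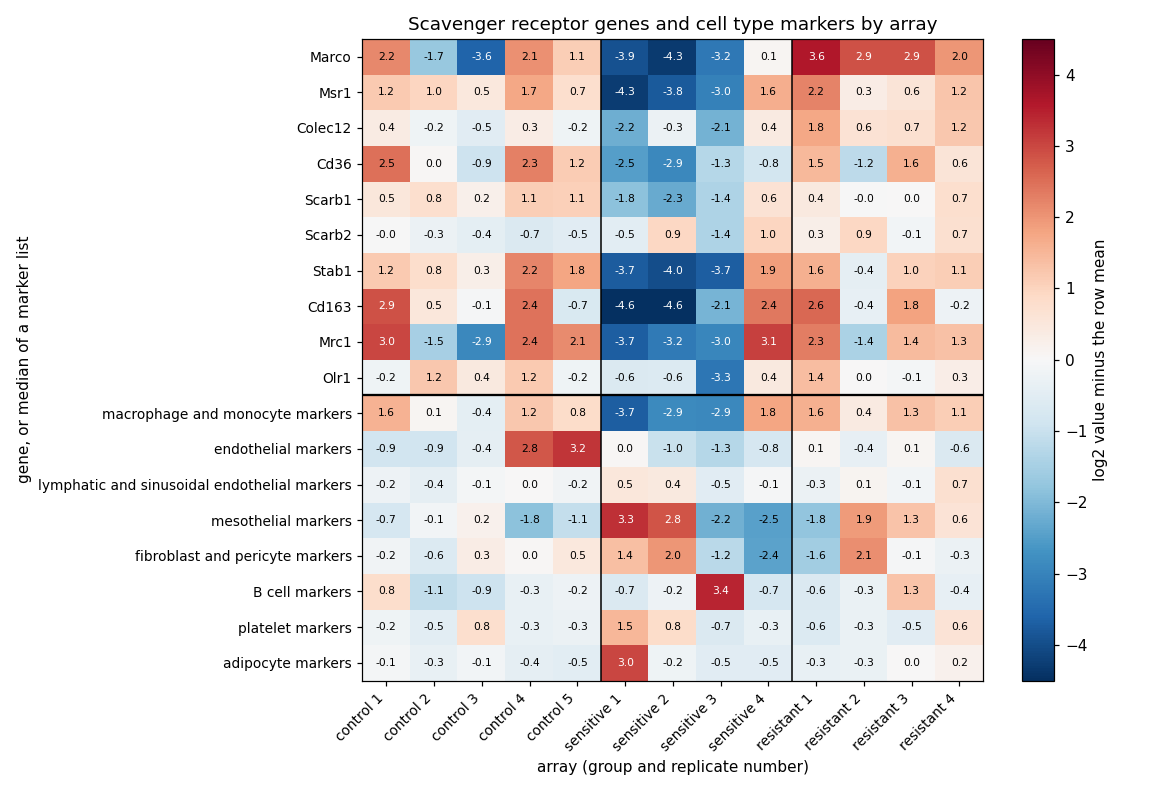
Log2 value of each scavenger receptor gene and median of each cell type marker list (rows) on each of the 13 arrays (columns), minus the mean of the row. Red is above and blue below the row mean, and vertical lines divide the groups. Most receptor rows are blue on sensitive arrays 1, 2 and 3, as is the macrophage and monocyte row, whereas Marco stays red on all 4 resistant arrays.

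The first comparison asked which receptors differed between the arrays labelled resistant and those labelled sensitive, groups that the paper ties to progression and to response under B20. All 10 genes had a higher mean on the resistant arrays, where 42.1% of all tested genes did. The median log2 difference of the 10 genes was 2.54, against -0.07 over all tested genes. Marco had the largest difference, 50.8-fold, and Scarb2 the smallest, 1.36-fold. In bulk samples of this kind, fewer cells of a type and less RNA per cell cannot be told apart. None of the 10 genes passed an adjusted p of 0.05 in limma, and 0% of all tested genes did. At an unadjusted p under 0.05, 8 of the 10 were higher, where 4.54% of tested genes were, and 0 were lower, where 2.53% were. The resistant and sensitive arrays did not overlap for 2 of the 10, Marco and Colec12, where 0.975% of tested genes were higher with no overlap.

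Marco, a class A receptor of resident macrophages that binds bacteria and particles, measured 8.49, 4.64, 2.72, 8.38 and 7.44 on control arrays 1 to 5, 2.42, 2.02, 3.12 and 6.41 on sensitive arrays 1 to 4, and 9.95, 9.20, 9.20 and 8.30 on resistant arrays 1 to 4. Every resistant array lay above every sensitive array, and the gap between the nearest 2 was 1.89. The mean of the resistant group was 9.16 ± 0.67 (SD, n = 4), and that of the sensitive group was 3.49 ± 1.996 (SD, n = 4). The log2 difference was 5.67 (SE 1.205, limma adjusted p = 0.307), and 0 of the 15384 tested genes had a larger positive one. The exact two-sided permutation p was 0.0286, the smallest that 4 against 4 arrays allow. This and the other exact p-values are unadjusted values from 30 such comparisons, 3 for each gene. A second Marco probe set stayed between the floor and 2.89 on all arrays and differed by 0.16, so the result rests on 1 probe set.

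Msr1, the scavenger receptor A of macrophages, measured 9.12, 8.91, 8.42, 9.69 and 8.70 on control arrays 1 to 5, 3.67, 4.19, 4.92 and 9.59 on sensitive arrays 1 to 4, and 10.19, 8.29, 8.55 and 9.19 on resistant arrays 1 to 4. Sensitive array 4 lay within the resistant range and the other 3 sensitive arrays lay below every other array. The log2 difference was 3.46 (SE 0.97, 10.99-fold, limma adjusted p = 0.448). Its 3 other probe sets differed in the same direction, by 1.29 to 3.31. Colec12, a collectin with a collagen stalk that binds sugars and oxidized lipoproteins, measured 6.33, 5.75, 5.43, 6.29 and 5.76 on control arrays 1 to 5, 3.75, 5.69, 3.83 and 6.35 on sensitive arrays 1 to 4, and 7.70, 6.58, 6.66 and 7.15 on resistant arrays 1 to 4. Every resistant array lay above every other array, by 0.24 above the highest sensitive array. The log2 difference was 2.12 (SE 0.53, 4.34-fold, limma adjusted p = 0.433, exact permutation p = 0.0286).

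**Figure D2:**
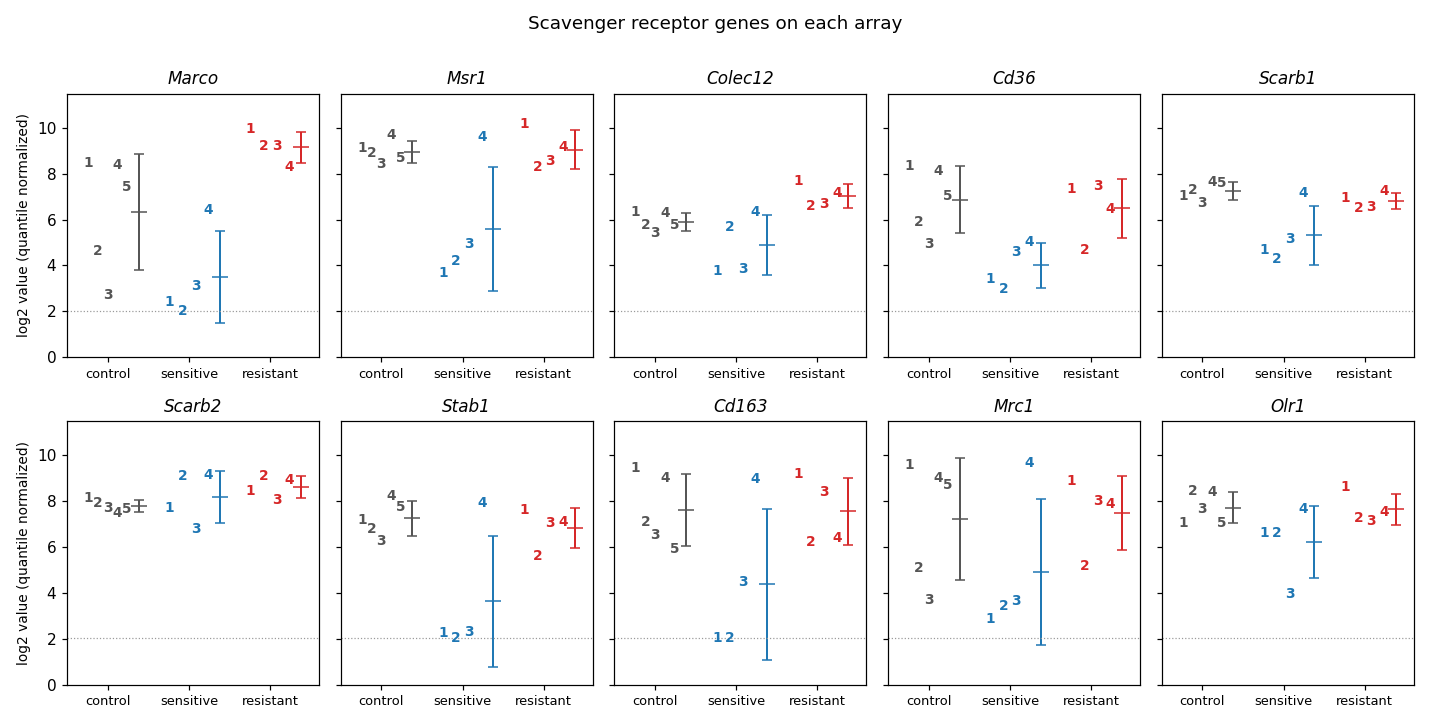
Log2 value of each scavenger receptor gene (y axis) in the 3 groups (x axis). Numbers are the replicate arrays, bars are the mean ± SD of the group, and the dotted line is the floor of 2.01. The 4 resistant arrays lie above all sensitive arrays for Marco and above all other arrays for Colec12, and sensitive array 4 lies far above the other sensitive arrays for Msr1, Stab1, Cd163 and Mrc1.

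Of the class B receptors, Cd36, which takes up fatty acids and oxidized lipoproteins and binds thrombospondin, measured 8.36, 5.91, 4.93, 8.13 and 7.03 on control arrays 1 to 5, 3.40, 2.99, 4.58 and 5.03 on sensitive arrays 1 to 4, and 7.34, 4.68, 7.48 and 6.45 on resistant arrays 1 to 4. Only resistant array 2 overlapped the sensitive arrays, and 15 of the 16 pairs of arrays had the resistant one higher. The log2 difference was 2.49 (SE 0.79, 5.61-fold, limma adjusted p = 0.534). Its other probe sets differed by 2.62 and 0.58, the latter close to the floor. Scarb1, the receptor for high-density lipoprotein, measured 4.68, 4.28, 5.15 and 7.18 on sensitive arrays 1 to 4, and the control and resistant arrays lay between 6.49 and 7.63. Its log2 difference was 1.49 (SE 0.51, 2.82-fold, limma adjusted p = 0.568), and its other probe sets differed by 1.09 and 1.73. The main Scarb1 probe set carries the suffix x_at, which marks a type whose probes can also bind related transcripts.

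Scarb2, the class B member that resides in the lysosomal membrane, had the smallest difference of the 10 genes between resistant and sensitive arrays at its main probe set. It measured 8.14, 7.91, 7.72, 7.51 and 7.65 on control arrays 1 to 5, 7.69, 9.11, 6.79 and 9.14 on sensitive arrays 1 to 4, and 8.44, 9.10, 8.06 and 8.90 on resistant arrays 1 to 4. The sensitive arrays lay on both sides of the resistant arrays, and the log2 difference was 0.44 with a 95% interval of -0.56 to 1.44. It was 0.87 without quantile normalization and 0.96 with median centring, and the second Scarb2 probe set differed by 0.86 (SE 0.35, limma adjusted p = 0.711 in a fit over 33616 tested probe sets rather than 1 per gene). Over the 13 arrays the Pearson correlation of Scarb2 with the other 9 genes ran from -0.18 for Cd36 to 0.61 for Colec12. These correlations are descriptions over arrays that share their groups and their cell mixtures.

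Stab1, a multidomain receptor of macrophages and sinusoidal endothelium that clears modified proteins, measured 2.27, 2.01, 2.31 and 7.90 on sensitive arrays 1 to 4, of which the second was at the floor. It measured 7.18, 6.80, 6.28, 8.21 and 7.77 on control arrays 1 to 5 and 7.60, 5.59, 7.05 and 7.10 on resistant arrays 1 to 4. Control arrays 4 and 5, which carried the endothelial markers, had the 2 highest values of the control group, as they also did for Scarb1. Sensitive array 4, where Pecam1 was at 2.83, lay between these 2 arrays for Stab1. The log2 difference of resistant and sensitive arrays was 3.21 (SE 1.04, 9.27-fold, limma adjusted p = 0.534). Markers of lymphatic and sinusoidal endothelium, 7 genes, had medians of 2.88 to 4.12 over the 13 arrays, with no group apart from the others.

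Cd163, the receptor for complexes of haemoglobin and haptoglobin, measured 9.46, 7.10, 6.53, 9.02 and 5.90 on control arrays 1 to 5, 2.01, 2.01, 4.49 and 8.98 on sensitive arrays 1 to 4, and 9.19, 6.23, 8.41 and 6.38 on resistant arrays 1 to 4. Sensitive arrays 1 and 2 were at the floor, and sensitive array 4 was near the top of all 3 groups. The log2 difference was 3.18 (SE 1.34, 9.06-fold, limma adjusted p = 0.675).

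Mrc1, the mannose receptor of macrophages and some endothelia, measured 9.59, 5.10, 3.67, 9.02 and 8.72 on control arrays 1 to 5, 2.87, 3.42, 3.64 and 9.66 on sensitive arrays 1 to 4, and 8.89, 5.16, 7.99 and 7.90 on resistant arrays 1 to 4. Its control arrays spanned 60.4-fold, the widest control range of the 10 genes, and the highest value of all was sensitive array 4. The log2 difference was 2.59 (SE 1.56, 6.01-fold, limma adjusted p = 0.773), with a 95% interval that included 0. Olr1, the lectin-like receptor for oxidized low-density lipoprotein, measured 6.59, 6.61, 3.97 and 7.67 on sensitive arrays 1 to 4 and 7.05 to 8.62 on the other arrays. Its log2 difference was 1.44 (SE 0.65, 2.70-fold, limma adjusted p = 0.702).

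**Figure D3:**
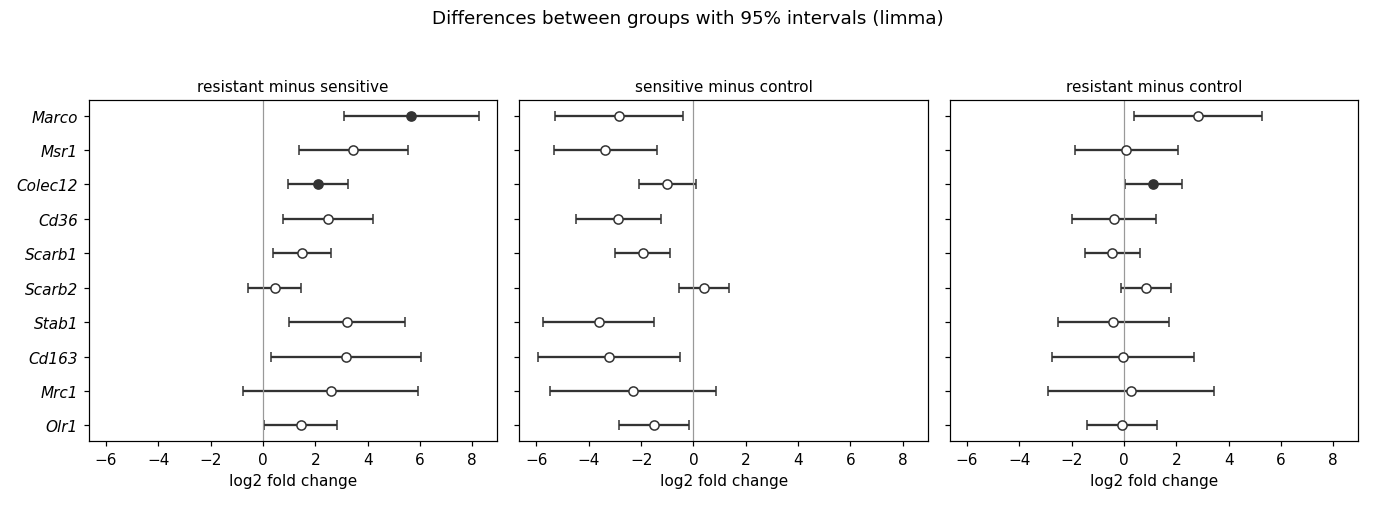
Log2 fold change (x axis) of each scavenger receptor gene (y axis) in the 3 comparisons, from limma over all 13 arrays. Points are estimates, bars are 95% intervals, and filled points are genes whose groups do not overlap. Marco is 5.67 higher on resistant than on sensitive arrays, most of the genes lie below 0 in the sensitive minus control panel, and in the resistant minus control panel Marco, Colec12 and Scarb2 lie to the right of the rest.

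The second comparison set the sensitive arrays against the control arrays, and it shares the sensitive arrays with the first. The mean of 9 of the 10 genes was lower on the sensitive arrays, where 41.6% of tested genes were lower, and the median log2 difference was -2.58 against 0.09 over all tested genes. None of the 10 had an adjusted p under 0.05, and 0% of all tested genes did. At an unadjusted p under 0.05, 7 of the 10 were lower, where 6.57% of tested genes were, and 0 were higher, where 5.32% were. The groups overlapped for all 10 genes, and 1.59% of tested genes were lower with no overlap.

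The 5 largest differences were those of Stab1, at -3.63 (SE 0.99, 12.3-fold, limma adjusted p = 0.244), Msr1 at -3.37, Cd163 at -3.23, Cd36 at -2.87 and Marco at -2.84. Cd36 came nearest to separating the groups, since only sensitive array 4, at 5.03, lay above a control array, and its exact permutation p was 0.0238 where the smallest possible was 0.00794. Scarb1 differed by -1.94 (SE 0.48, limma adjusted p = 0.212), with the same exact permutation p. Mrc1 differed by -2.32, Olr1 by -1.52 and Colec12 by -1.01. Scarb2 differed by 0.40 with a 95% interval of -0.55 to 1.35, and its second probe set by -0.09. Its sign also turned when the arrays were not quantile normalized, to -0.06, or were centred on their medians, to -0.17.

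Sensitive array 4 decided whether these differences passed the threshold. Without it, 6 of the 10 genes were higher on resistant than on sensitive arrays at an adjusted p under 0.05 in limma, where 2.47% of tested genes were. These were Marco, Msr1, Cd163, Stab1, Scarb1 and Colec12, with log2 differences of 2.11 for Scarb1 to 6.64 for Marco and limma adjusted p-values of 0.000162 for Msr1 to 0.0201 for Cd163. Against the control arrays, 5 were lower without it, Msr1, Cd163, Stab1, Scarb1 and Cd36, where 3.52% of tested genes were. The 3 arrays left in the sensitive group are those with the low macrophage markers. With those 3 arrays left out and sensitive array 4 kept, whose spread is then assumed to equal that of the other groups, 7 of the 10 genes were lower on the resistant than on the sensitive array in place of higher, and Marco differed by 2.75, Cd36 by 1.45 and Colec12 by 0.68.

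The third comparison, of resistant with control arrays, shares its arrays with the other comparisons. The median log2 difference of the 10 genes was 0.02 against 0.03 over all tested genes, and 5 of the 10 were above 0, where 54.3% of tested genes were. None of the 10 had an adjusted p under 0.05, and 0% of all tested genes did. Marco and Colec12, 2 of the 10, were higher at an unadjusted p under 0.05, where 0.995% of tested genes were, and 0 were lower, where 1.53% were. Colec12 was the 1 gene of the 10 whose groups did not overlap, where 1.31% of tested genes were higher with no overlap.

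Marco differed by 2.83 (SE 1.14, 7.10-fold, limma adjusted p = 1.00), and 0 tested genes had a larger positive difference, or 1 gene where the arrays were not quantile normalized or were centred on their medians. In 18 of 20 pairs of arrays the resistant one was higher, with an exact permutation p of 0.0714, and control arrays 1 and 4 lay above resistant array 4. The control spread behind that was 54.6-fold, with Marco at 4.64 and 2.72 on control arrays 2 and 3. Colec12 differed by 1.11 (SE 0.51, 2.16-fold, limma adjusted p = 1.00), with all 20 pairs higher, a gap of 0.26 and an exact permutation p of 0.00794, the smallest possible. Scarb2 differed by 0.84 (SE 0.44, 1.79-fold, limma adjusted p = 1.00), with 19 of 20 pairs higher and an exact permutation p of 0.0159. The 3′ minus 5′ difference was above every control array on resistant arrays 2, 3 and 4, and its part in these differences was not tested. The other 7 genes differed by -0.45 for Scarb1 to 0.27 for Mrc1. For Msr1, at 0.09, the 95% interval ran from -1.89 to 2.06.

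The control arrays themselves fell apart by receptor. Control arrays 2 and 3 had the 2 lowest control values of Marco, Mrc1 and Cd36, and they also had the lowest macrophage marker medians of the group, 8.96 and 8.45. On the same arrays Msr1 was at 8.91 and 8.42, and over the 5 control arrays Msr1 spanned 2.41-fold, Scarb1 1.85-fold and Scarb2 1.56-fold. Resistant array 2 was the lowest of its group for Mrc1, Cd36, Cd163 and Stab1, among others, at 5.16, 4.68, 6.23 and 5.59, and it also had the lowest macrophage marker median of the group, 9.28. The same array had the highest fibroblast and pericyte median of all 13 arrays, 8.67, and the highest mesothelial median of its group, 6.97, and their part in these values was not tested. Marco was at 9.20 on that array, and Scarb2, at 9.10, was the highest of the group there.

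Because the macrophage markers moved with the receptors, each gene was also expressed relative to the macrophage marker median of its array, a measure chosen after the values had been seen. The size of such a value has no meaning between genes, and only its differences between arrays were read. For Marco the relative level was -1.95, -4.32, -5.73, -1.71 and -2.25 on control arrays 1 to 5, -2.76, -3.97, -2.86 and -4.25 on sensitive arrays 1 to 4, and -0.55, -0.08, -1.001 and -1.70 on resistant arrays 1 to 4. On this measure every resistant array lay above every other array, though resistant array 4 and control array 4 differed only in the second decimal. Before this subtraction, control arrays 1 and 4 lay above resistant array 4 for Marco. The relative level was 2.63 higher on resistant than on sensitive arrays (6.18-fold, exact permutation p = 0.0286) and 2.36 higher than on control arrays (5.13-fold, exact permutation p = 0.0317). On sensitive arrays 1 and 2 Marco was close to the floor, which keeps its relative level there from going lower. With the macrophage marker median as a covariate in limma, Marco differed by 2.52 (SE 1.07, adjusted p = 0.998) between resistant and sensitive arrays and by 2.34 (SE 0.76, adjusted p = 0.986) between resistant and control arrays.

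The other 9 genes overlapped between resistant and sensitive arrays on this measure. Msr1 ran from -1.32 to -0.03 on control, from -1.80 to -1.06 on sensitive and from -1.65 to -0.31 on resistant arrays, a far narrower range than that of its level. Relative to the control arrays, Stab1 differed by -1.05 on sensitive arrays (exact permutation p = 0.0317) and by -0.88 on resistant arrays (exact permutation p = 0.0397). On resistant arrays Colec12 differed by -0.92 from sensitive and by 0.65 from control arrays, with overlap in both. Scarb2, Olr1, Scarb1, Cd36 and Mrc1 also differed downward from sensitive arrays, at -2.60, -1.60, -1.55, -0.55 and -0.45. Msr1, Stab1 and Cd163 differed upward, at 0.42, 0.17 and 0.14. Scarb2 was 2.97 higher on sensitive than on control arrays (exact permutation p = 0.0317). Its levels were 7.69 and 9.11 on sensitive arrays 1 and 2, where the macrophage markers were low. Before the subtraction Scarb2 differed by 0.40, so most of the 2.97 came from the subtracted median. The exact permutation p-values of relative levels are unadjusted values from 30 comparisons.

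**Figure D4:**
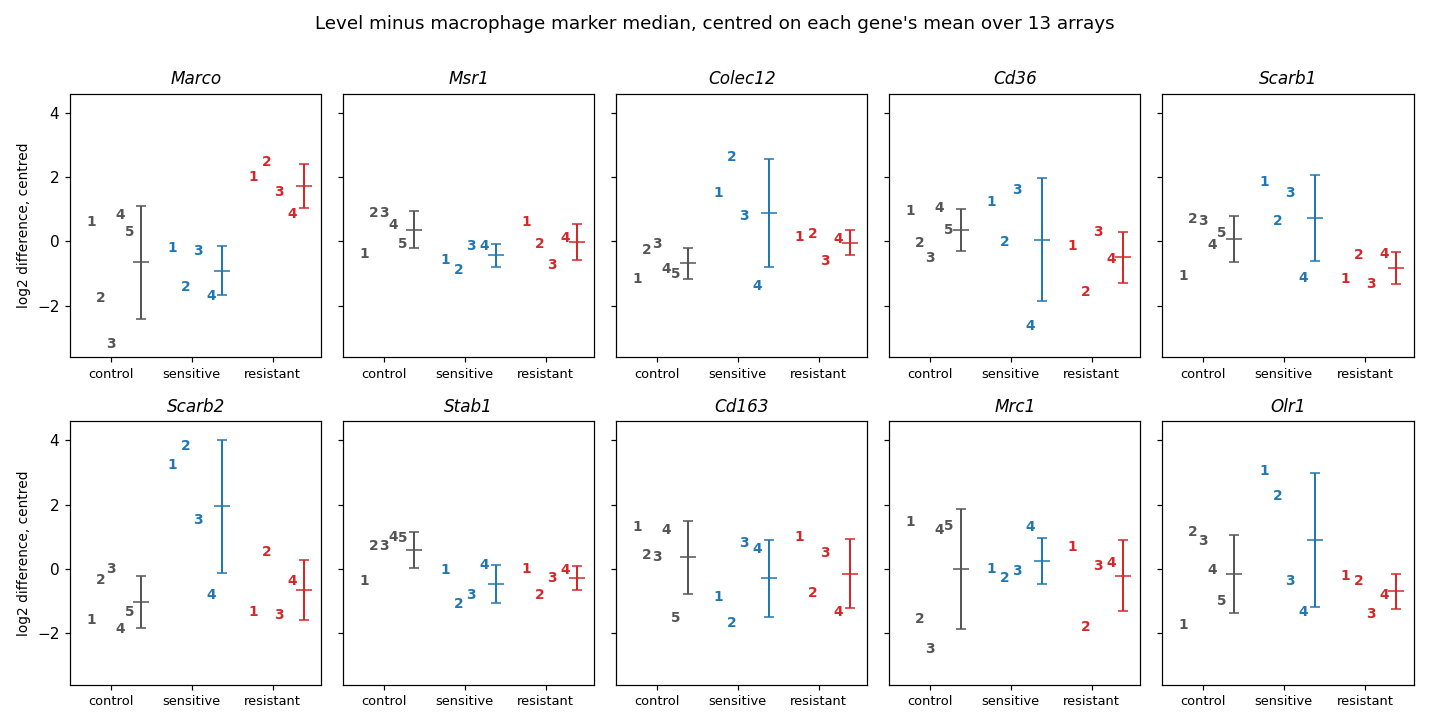
Log2 value of each scavenger receptor gene minus the median log2 value of 16 macrophage and monocyte markers on the same array, centred on the mean of the gene over 13 arrays (y axis), in the 3 groups (x axis). Numbers are the replicate arrays and bars are the mean ± SD. All 4 resistant arrays lie above the other arrays for Marco, and the groups overlap between resistant and sensitive for the other 9 genes. The share over all tested genes was not computed.

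The genes around the receptors were read from 6 lists, which held 0 genes with an adjusted p under 0.05 in any comparison. Of 12 other scavenger receptors tested, 7 had a higher mean on resistant than on sensitive arrays, where 42.1% of all tested genes did, and 3 were higher at an unadjusted p under 0.05, where 4.54% were. Their median was 0.47, against -0.07 over all tested genes. The 3 were Cd68, the macrosialin of macrophage lysosomes, at 3.38 (SE 0.83, limma adjusted p = 0.399), the endocytic receptor Lrp1 at 1.93 and the beta-glucan receptor Clec7a at 2.47. The ferritin receptor Scara5 was lower on all 4 sensitive arrays, at 2.94 to 3.71, than on the control arrays, at 3.88 to 6.14, and differed by -1.69 (SE 0.56, limma adjusted p = 0.292).

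Of 14 genes for ligands and partners of the receptors, 10 had a higher mean on resistant than on sensitive arrays and 3 were higher at an unadjusted p under 0.05 (42.1% and 4.54% of all tested genes), with a median of 0.62. On sensitive arrays 12 had a lower mean than on control arrays, where 41.6% of all tested genes did, with a median of -0.91. Cd5l, a secreted protein of macrophages that carries scavenger receptor repeats and is bound by Cd36, measured 7.97, 3.91, 3.34, 8.71 and 6.61 on control arrays 1 to 5, 4.68, 2.49, 3.09 and 4.48 on sensitive arrays 1 to 4, and 8.77, 9.11, 8.37 and 7.90 on resistant arrays 1 to 4. Like Marco, it was low on control arrays 2 and 3 and high on resistant array 2. It differed by 4.86 (SE 1.01, limma adjusted p = 0.307) between resistant and sensitive arrays, with no overlap, and by 2.43 (SE 0.96, limma adjusted p = 1.00) between resistant and control arrays. Cd36 itself was at 4.68 on resistant array 2, where Cd5l was highest. Apoe, a lipoprotein ligand, differed by 2.36 between resistant and sensitive arrays, and the toll-like receptor Tlr2, a partner of Cd36 in ligand recognition, by 2.22.

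Other lists held genes that act on the cargo. Of 9 genes of haem and iron handling, 8 had a higher mean on resistant than on sensitive arrays and 4 were higher at an unadjusted p under 0.05 (42.1% and 4.54% of all tested genes), with a median of 0.74. The haem transporter Slc48a1 measured 5.94, 6.56, 5.01 and 6.83 on sensitive and 7.09, 7.09, 7.37 and 7.44 on resistant arrays, a difference of 1.16 (SE 0.35, limma adjusted p = 0.512) with no overlap, and it did not overlap the control arrays either, from which it differed by 0.46 (SE 0.33, limma adjusted p = 1.00). The iron exporter of phagosomes Slc11a1 differed by 2.28 and haem oxygenase Hmox1 by 2.02. Of 10 genes of lipid storage and cholesterol handling, 8 had a higher mean on resistant arrays and 3 were higher at an unadjusted p under 0.05 (42.1% and 4.54% of all tested genes). Their median was 0.99, led by the lysosomal cholesterol transporter Npc1 at 2.49 (SE 0.64, limma adjusted p = 0.433), the acid lipase Lipa at 1.97 and the lipid droplet protein Plin2 at 1.62.

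Of 14 genes for the uptake of apoptotic cells, 8 had a higher mean on resistant than on sensitive arrays and 3 were higher at an unadjusted p under 0.05 (42.1% and 4.54% of all tested genes), with a median of 0.42. Timd4, a phosphatidylserine receptor of resident macrophages, measured 2.01, 2.01, 3.47 and 5.12 on sensitive and 7.54, 5.47, 6.07 and 5.83 on resistant arrays, a difference of 3.07 (SE 0.71, limma adjusted p = 0.386) with no overlap. On the control arrays it lay between 5.19 and 7.64, all above the sensitive arrays, with a difference of -3.33 (SE 0.68, limma adjusted p = 0.180). The receptor kinase Mertk differed by 2.18 between resistant and sensitive arrays and its ligand Pros1 by 1.31. Of 11 transcription factors of macrophage and lipid programs, 10 had a higher mean on resistant than on sensitive arrays and 4 were higher at an unadjusted p under 0.05 (42.1% and 4.54% of all tested genes). Their median was 0.40, led by the lysosome and pigment cell factor Mitf at 2.36 (SE 0.65, limma adjusted p = 0.448), Rxra at 1.16 with no overlap, and the myeloid factor Cebpa at 2.21. Between sensitive and control arrays the 6 list medians lay between -1.21, for lipid storage, and -0.32, for apoptotic cell uptake, with 2 to 5 genes of a list lower at an unadjusted p under 0.05, where 6.57% of all tested genes were. Between resistant and control arrays the 6 list medians lay between -0.06 and 0.10.

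The genes most like each receptor over the 13 arrays were taken from 15374 tested genes by Pearson correlation, as a description of arrays that share their groups and cell mixtures. Marco was most like Glb1 at 0.949, Cd5l at 0.942 and F5 at 0.941. Msr1 was most like Ctsc at 0.979, Galc at 0.978 and Frrs1 at 0.977. Stab1 was most like Cd14 at 0.989, Acod1 at 0.982 and Dpp7 at 0.982, and Scarb1 shared Cd14 and Acod1 among its 3 nearest genes and Ctsc with Msr1. The Cd14 gene is itself one of the macrophage and monocyte markers. Cd36 was most like Rasa4 at 0.926, Timd4 at 0.924 and Cfp at 0.924, Mrc1 like Pxn, Ccl8 and Rgl1 at 0.960 to 0.962, and Cd163 like Tnip2, Galnt7 and Ccr1 at 0.945 to 0.948. Colec12 was most like Calml4 at 0.946, Rgcc at 0.934 and Bmp2 at 0.932, Olr1 like P4hb, Pygl and Anxa3 at 0.9502 to 0.958, and Scarb2 like Rnase4 at 0.910, Klhl40 and Eya4 at 0.895. Among the receptors the closest pairs were Msr1 with Stab1 at 0.973, Stab1 with Scarb1 at 0.966 and Msr1 with Scarb1 at 0.947.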

How the data were processed

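Accounts of the assay differ. Per the labels, biotinylated cRNA was hybridized and processed with MAS5, while the study's methods describe Illumina bead chips normalized in BRB-ArrayTools. The deposited table holds 45101 Affymetrix probe sets, and its values were taken as log2 intensities from their range, since neither the base nor the normalization of the authors is given in the sources used here. The members and lists were chosen with earlier results of these data known.

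Arrays were quantile normalized, because their trimmed linear means differed 1.73-fold, and values under the 30th percentile of all values, 2.01, were set to it. This understates the change of dim genes. The platform annotation gave 1 gene symbol to 34958 probe sets and several to 932, and did not list 9211. Of the first, 34754 matched the reference gene table by Entrez identifier. Each of 18193 genes took its probe set with the highest mean, and 15384 genes above the floor on at least 4 arrays were tested with limma 3.58.1 in R 4.3.3 over the 3 groups, with 10 residual degrees of freedom, an intensity trend, two-sided tests and Benjamini-Hochberg adjustment over all genes. The number of arrays limits the precision. Single genes were compared by exact permutation of arrays. The script was tested on simulated data.

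Named were the 10 members, up to 3 genes of smallest p per list and comparison, the medians of the marker lists with Pecam1, Cdh5, Lyz2 and Csf1r, and the 3 genes most correlated with each member. Listed genes with no probe set of 1 symbol were not analysed here. Replicates correlated at 0.906 to 0.985 in the control, 0.664 to 0.919 in the sensitive and 0.896 to 0.955 in the resistant group, and 0 pairs were identical. Alternatives covered the scaling, floor, filter, probe set rule, variance model, the methods' t-test (run without the random variance model), the samples fitted, the replicate block, left-out arrays and a macrophage covariate added after the data were seen.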

Additional observations from a re-analysis of the deposited data

Results flagged for a closer look

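Each of the 10 receptors was examined for a single array far from the others of its group, which gave 30 groups, of which 2 were marked. Chance marks about 1 group in 20. Stab1 was at 7.90 on sensitive array 4 and at most 2.31 on the other sensitive arrays, a gap that took up 0.95 of the range of the group. Mrc1 was at 9.66 on sensitive array 4 and at most 3.64 on the others, a gap of 0.888 of the range. Sensitive array 4 also had a macrophage marker median of 10.66 against 5.18 to 5.996 on the other sensitive arrays and the largest 3′ minus 5′ difference, 5.75, and their part in these values was not tested.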

How the results depend on the processing

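With all 13 arrays, 0 genes had an adjusted p under 0.05 in limma in any comparison, against 1087, 1829 and 388 at an unadjusted p under 0.05 between resistant and sensitive, sensitive and control, and resistant and control arrays. The methods' t-test gave 529, 1371 and 1043 unadjusted, of which 3, 4 and 2 were receptors, and 0 adjusted. Between resistant and sensitive arrays, 1 gene was called with the floor at the 50th percentile, 2 with arrays of the 2 groups only, 2 without sensitive arrays 1 to 3 and 2 with the macrophage covariate, and 0 to 428 when single arrays were left out, 428 without sensitive array 4. Between sensitive and control arrays, 4 were called without sensitive arrays 1 to 3, 1 with the covariate and 0 to 696 with single arrays left out, 696 without sensitive array 4. Between resistant and control arrays, 34 were called with array weights. The cause was not tested.

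The median of the 10 receptors between resistant and sensitive arrays was -0.44 without sensitive arrays 1 to 3 and 0.26 with the covariate, and between sensitive and control arrays 0.53 and -0.47. Without sensitive arrays 1 to 3, the resistant minus sensitive difference turned to -0.54 for Msr1, -1.43 for Cd163, -1.07 for Stab1, -2.18 for Mrc1, -0.36 for Scarb1, -0.52 for Scarb2 and -0.023 for Olr1. The sensitive minus control difference turned to 0.076 for Marco, 0.63 for Msr1, 1.38 for Cd163, 0.65 for Stab1, 2.44 for Mrc1 and 0.44 for Colec12. With the covariate, it turned to 0.13 for Cd163, 1.71 for Mrc1 and 0.087 for Colec12, the resistant minus sensitive difference to -0.79 for Cd163, -0.11 for Stab1, -2.18 for Mrc1 and -0.17 for Scarb2, and the resistant minus control difference to -0.38 for Msr1 and -0.47 for Mrc1. Array weights turned Scarb2 to -0.0085 between resistant and sensitive arrays and, between resistant and control arrays, Msr1 to -0.28, Cd163 to 0.26 and Mrc1 to -0.55. Without control arrays 4 and 5, Stab1 turned to 0.080 and Cd36 to 0.086 between resistant and control arrays. Without quantile normalization Scarb2 turned to -0.057 between sensitive and control arrays, and with median centring to -0.17. Median centring moved the median of all genes from -0.07 to 0.04 between resistant and sensitive arrays and from 0.09 to -0.05 between sensitive and control arrays.

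With single arrays left out, signs turned for Scarb2 between resistant and sensitive arrays, at -0.022 to 0.76, and between resistant and control arrays for Msr1 at -0.29 to 0.34, Cd163 at -0.59 to 0.42, Stab1 at -0.67 to 0.0025, Mrc1 at -0.62 to 1.04, Cd36 at -0.87 to 0.22 and Olr1 at -0.41 to 0.0996. Marco and Colec12 kept their signs between resistant and sensitive and between resistant and control arrays under every alternative run. So did Cd36 between resistant and sensitive arrays, and Scarb1 and Scarb2 between resistant and control arrays. The difference in the relative level of Marco between resistant and sensitive arrays was 3.70 against the summed macrophage level and 3.45 against Csf1r alone. It was 3.42 without sensitive arrays 1 to 3, and 2.36 to 2.92 with single arrays left out. Against control arrays it was 1.73 to 2.73 with single arrays left out. Deviations of same-numbered arrays correlated at -0.43 to 0.53, with 4 of 12 pairs above 0.1. Cell mixtures also enter these deviations, so they cannot decide whether the replicate numbers pair the arrays. With the number as a replicate block, 0 genes were called in any comparison, the receptor medians were 2.54, -2.25 and -0.11, and Marco differed by 5.67, -2.56 and 3.10. The number of arrays and the dimness of probe sets near the floor limit these results.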

Other observations

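Lyz2, the lysozyme of macrophages, was at 7.45 to 8.05 on sensitive arrays 1 to 3 and at 10.71 to 11.90 on the other arrays, and Csf1r, the receptor for the macrophage growth factor, was at 7.39 to 8.61 and at 10.40 to 11.86. On sensitive array 4, Csf1r was at 11.86, the highest of the 13 arrays, while Marco was at 6.41, below all resistant arrays and below control arrays 1, 4 and 5. Cd36 was at 5.03 and Timd4 at 5.12 on the same array, near the lowest control values of 4.93 and 5.19, while Mrc1, at 9.66, was higher there than on any other array. Platelets and adipocytes also carry CD36. Platelet markers had list medians of 3.74 to 5.89 over the 13 arrays, the highest on sensitive array 1, where Cd36 was at 3.40. The log2 of their summed level ordered the arrays otherwise, at 8.26 on sensitive array 1 and highest, at 9.89, on resistant array 4. Cd36 was at 6.45 on resistant array 4, and the part of platelets in its level was not tested. Adipocyte markers had a median of 5.52 on sensitive array 1 and at most 2.71 elsewhere.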
